A study of Mus musculus with 11 samples.

Results

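The 52 genes described here are the matrix metalloproteases (Mmp), 7 sheddases of the ADAM family, the ADAMTS proteases and the tissue inhibitors of metalloproteases (Timp). They were taken by gene symbol, although earlier results of these data were known when the set was chosen. No measured difference entered the rule itself. It took every probe set with a single symbol of the form Mmp plus a number, with or without a letter (as in Mmp1a). It also took Adamts plus a number, Timp1 to Timp4, and Adam8, Adam9, Adam10, Adam12, Adam15, Adam17 and Adam19. These genes make up 52 of 30790 genes on the arrays, 22 Mmp, 7 Adam, 19 Adamts and 4 Timp genes. Adamts14 had 2 probe sets, and the brighter was kept.

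All 4 families meet in the extracellular matrix. Metalloproteases of these families carry a zinc ion in the active site and are made as inactive proenzymes. MMPs cut collagens, laminins and other parts of the basement membrane and of the tight junctions around brain vessels, and are widely studied in the opening of the blood-brain barrier after stroke. ADAMs are mostly membrane proteins that release cytokines, growth factors and adhesion molecules from the cell surface, ADAMTS enzymes are secreted proteases that cut matrix proteoglycans or process procollagen, and TIMPs block the active site.

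RNA came from vascular fragments, pieces of vessel of the hemisphere in which the middle cerebral artery had been occluded (MCAO, a stroke model), and was measured with Affymetrix arrays. All mice were adult C57BL/6 males with MCAO, given either phosphate-buffered saline (PBS) or imatinib, a drug that blocks the tyrosine kinases ABL, KIT and the PDGF receptors. There were 11 arrays in 4 groups, with 3 arrays of PBS and 2 of imatinib at 3 h after the occlusion, and 3 of each treatment at 24 h. Mice taken at 3 h had received 3 treatments before the occlusion and mice taken at 24 h a 4th one, so time and number of treatments cannot be told apart. No dose of imatinib is stated in the labels, and vessels without occlusion were not analysed here. The labels do not say that replicates were separate animals, so p-values measure only the spread between these samples.

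All values are log2 signals, whose precision is limited by the small number of arrays. The medians of the arrays over all genes lay between 5.20 and 5.28 and their 25th percentiles between 3.88 and 3.97. As a check of the labelled tissue, 11 of 12 endothelial markers stood above the 90th percentile on all 11 arrays, against 3 of 10 pericyte, 3 of 8 smooth muscle, 4 of 8 microglial, 5 of 12 monocyte and macrophage, and none of 8 neuronal markers. Of the 52 members, 20 lay above the array's median on all 11 arrays, among them all 4 Timp genes and 5 of the 7 Adam genes. Another 16 never exceeded it, and Adamts3, Adamts18, Mmp1a and Mmp1b lay below the 25th percentile on every array. Signals of different genes come from different probes, so they are not ranked against each other.

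Between 3 h and 24 h after MCAO the vessels of PBS-treated mice gained RNA of Adam8, Mmp12, Timp1, Mmp19, Adamts4, Mmp3 and Mmp14, and lost RNA of Timp3, Timp4, Mmp28 and Adamts10. Thus 11 of the 52 members passed an adjusted p of 0.05 in limma, 7 higher and 4 lower at 24 h, where 16.6% of all genes passed (9.34% higher and 7.28% lower). By family these were 4 higher and 1 lower of 22 Mmp genes, 1 higher of 7 Adam genes, 1 higher and 1 lower of 19 Adamts genes, and 1 higher and 2 lower of 4 Timp genes. The members' share of calls, 11 of 52, was thus not far from the background. Their median log2 difference was 0.06 against -0.02 for all genes, the range was -1.05 to 2.73, and 40 of 52 stayed within 0.5 of 0. In 17 members the 3 h and 24 h PBS arrays did not overlap (11 higher and 6 lower), against 29.9% of all genes (15.2% higher and 14.7% lower).

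In imatinib-treated mice 13 members passed over the same interval in limma, 8 higher and 5 lower, where 13.1% of all genes passed (7.76% higher and 5.32% lower). In 25 members the imatinib arrays of the 2 times did not overlap (14 higher and 11 lower), against 42.3% of all genes (19.4% and 22.8%), a looser rule with 2 arrays at 3 h. The 13 held all 11 members called in PBS, each in the same direction, and also Adam9, which was higher, and Adamts6, which was lower. The shared calls are 100% of the PBS calls and 84.6% of the imatinib calls. The same overlap was not counted over all genes, so these shares cannot be called particular to the members. The imatinib and PBS arrays are different samples, although both comparisons use 1 estimate of the spread. Without imatinib 3 h replicate 1 the count in imatinib fell to 4 (Adam8, Mmp28, Timp1 and Timp3), and it was 8 without imatinib 3 h replicate 2 and 8 without imatinib 24 h replicate 3. In those 3 fits the share of all genes called fell too, from 13.1% to 7.39%, 7.39% and 9.22%. A test of the difference between the changes over time (the interaction) passed for none of the 52 members in limma, with adjusted p of at least 0.904. The remaining 39 members passed in no comparison.

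**Figure D1:**
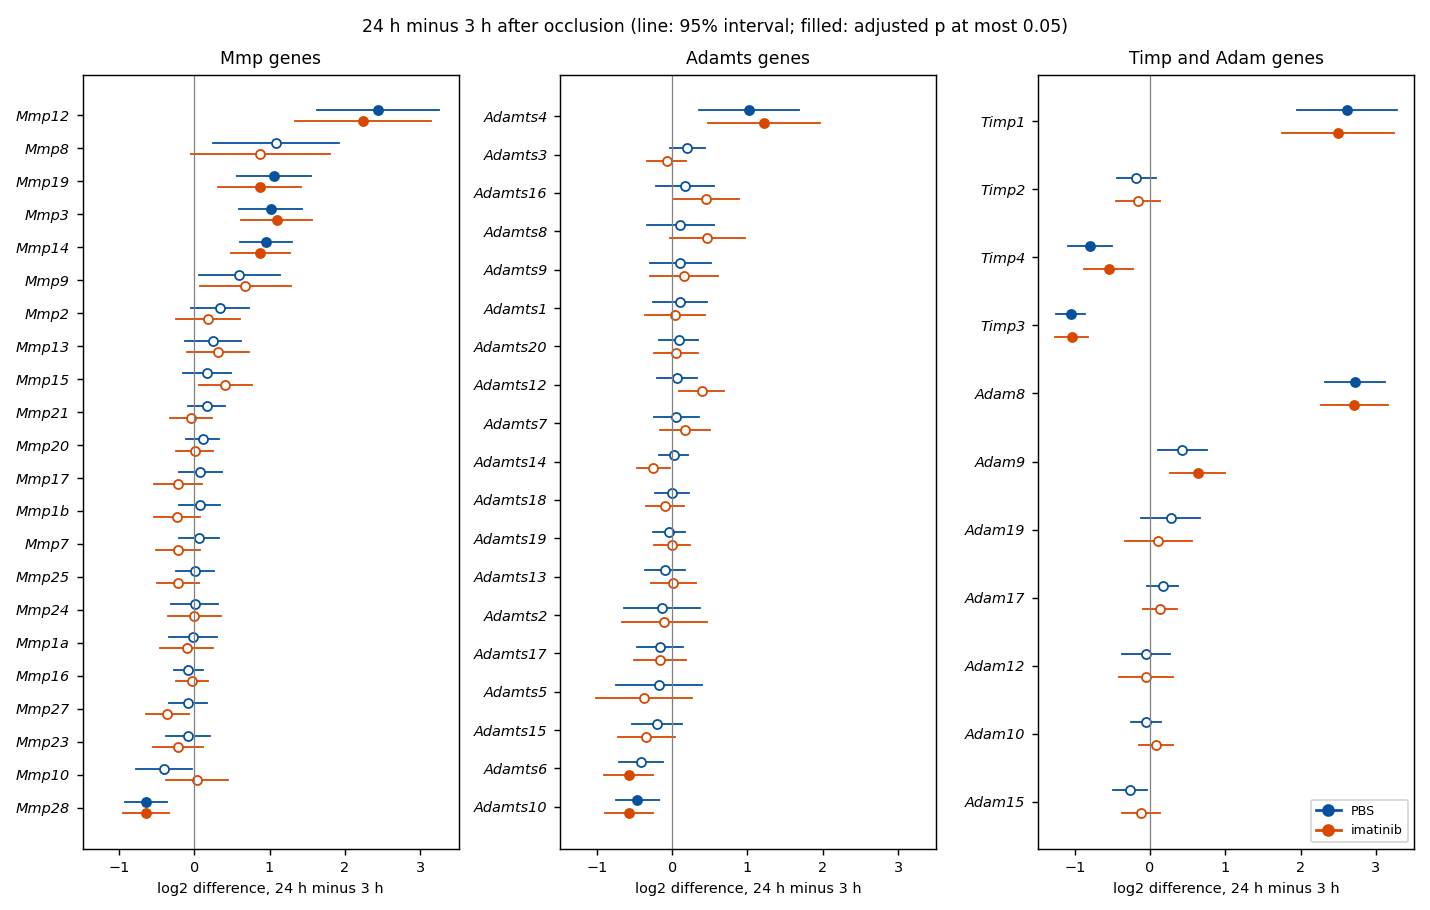
Log2 difference between 24 h and 3 h for each member in PBS (n = 3 and 3 arrays) and in imatinib (n = 3 and 2), with lines for 95% intervals and filled points for adjusted p of 0.05 or less in limma. Adam8, Timp1 and Mmp12 lie at the high end in both treatments and Timp3 at the low end.

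Among the secreted MMPs, the macrophage elastase Mmp12 had the largest difference. The signals of Mmp12 were 4.78, 4.79 and 4.51 in PBS and 4.01 and 4.81 in imatinib at 3 h, and 6.93, 6.33 and 8.16 in PBS and 6.47, 6.58 and 6.91 in imatinib at 24 h. Each 24 h array lay above every 3 h array, and PBS 24 h replicate 3 was the highest. Its log2 difference over time was 2.45 ± 0.37 in PBS, a 5.45-fold rise (adjusted p = 0.000853, limma), and 2.24 ± 0.41 in imatinib, 4.74-fold (adjusted p = 0.00415, limma). The rise in imatinib did not pass without imatinib 3 h replicate 1, where the difference was 1.85 (adjusted p = 0.054, limma).

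Mmp3, stromelysin-1, which cuts many matrix proteins and activates other MMPs, was dim at 3 h. Mmp3 read 3.83, 3.43 and 3.66 on the PBS 3 h arrays, 3.57 and 3.78 on the imatinib 3 h arrays, 4.54, 4.37 and 5.06 on the PBS 24 h arrays and 4.95, 4.43 and 4.93 on the imatinib 24 h arrays. The 5 arrays at 3 h lay below the 25th percentile of their arrays and all 6 at 24 h lay above them. The log2 difference was 1.01 ± 0.19 in PBS (adjusted p = 0.00355, limma) and 1.10 ± 0.22 in imatinib (adjusted p = 0.00599, limma), a size that is uncertain for so dim a signal. In imatinib the call was lost without imatinib 3 h replicate 1 (0.99, adjusted p = 0.0609, limma).

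Mmp3 and Mmp12 lie in a run of 10 neighbouring Mmp genes on chromosome 9, in the order Mmp13, Mmp12, Mmp1b, Mmp3, Mmp1a, Mmp10, Mmp8, Mmp27, Mmp20 and Mmp7 in the RefSeq table. These 2 of the 10 passed over time in PBS in limma and 8 did not, a share near the 16.6% of all genes. Mmp10, stromelysin-2, had a log2 difference of -0.40 ± 0.17 in PBS (adjusted p = 0.144, limma). Mmp13, a collagenase, had 0.25 ± 0.17 (adjusted p = 0.406, limma) with signals near the 25th percentile, and passed without PBS 24 h replicate 2 (0.47, adjusted p = 0.0349). The promoters of these 4 genes are given here, 2 of members that passed and 2 of neighbours that did not, from RefSeq, build GRCm38.p6, plus strand, 250 bases before to 50 bases after the annotated start. Capitals mark the AP-1 motif, TGACTCA on either strand (read as TGAGTCA on the other), and the TATA box, TATAAA on the sense strand. The windows are chr9:7445572-7445871 for Mmp3, chr9:7347124-7347423 for Mmp12, chr9:7502092-7502391 for Mmp10 and chr9:7272264-7272563 for Mmp13.
Mmp3: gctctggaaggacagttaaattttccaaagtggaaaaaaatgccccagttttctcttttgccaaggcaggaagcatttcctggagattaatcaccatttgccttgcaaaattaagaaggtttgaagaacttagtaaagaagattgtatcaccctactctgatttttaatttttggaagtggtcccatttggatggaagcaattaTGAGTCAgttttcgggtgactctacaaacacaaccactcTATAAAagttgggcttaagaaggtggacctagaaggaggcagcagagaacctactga
Mmp12: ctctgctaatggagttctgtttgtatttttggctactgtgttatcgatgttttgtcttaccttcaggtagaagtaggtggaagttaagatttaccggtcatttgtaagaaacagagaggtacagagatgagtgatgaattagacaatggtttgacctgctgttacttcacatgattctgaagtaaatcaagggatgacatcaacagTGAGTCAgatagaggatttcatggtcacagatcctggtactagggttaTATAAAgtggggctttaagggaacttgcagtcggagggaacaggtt
Mmp10: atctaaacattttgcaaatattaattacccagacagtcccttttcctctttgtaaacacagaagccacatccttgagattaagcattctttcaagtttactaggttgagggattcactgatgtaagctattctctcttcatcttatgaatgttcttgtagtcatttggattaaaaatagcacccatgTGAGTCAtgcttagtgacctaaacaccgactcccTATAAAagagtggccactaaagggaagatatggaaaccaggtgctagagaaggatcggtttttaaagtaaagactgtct
Mmp13: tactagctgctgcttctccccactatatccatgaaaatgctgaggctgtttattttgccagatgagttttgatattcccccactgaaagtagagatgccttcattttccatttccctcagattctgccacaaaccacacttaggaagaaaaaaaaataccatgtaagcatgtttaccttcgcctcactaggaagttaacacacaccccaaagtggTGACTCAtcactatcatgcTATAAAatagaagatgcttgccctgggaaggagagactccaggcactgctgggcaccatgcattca

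The AP-1 motif, which FOS and JUN dimers bind, began 46 bases before the annotated start in Mmp3 and 44 before it in Mmp12. In Mmp10 the motif began 63 bases before the start and in Mmp13 35 before it. The TATA letters began 7 bases before the annotated start in Mmp3, 29 in Mmp10 and 16 in Mmp13, but 4 bases after it in Mmp12. All these distances rest on the annotated starts, which were not tested. Promoter windows were found for 36 of the 52 members, and 8 of these held the AP-1 letters (Adam19, Mmp1a, Mmp1b, Mmp3, Mmp7, Mmp10, Mmp12 and Mmp13), counting a gene with the letters in any of its windows, against 5.95% of all 27025 genes with a window counted the same way (5.20% of all 32851 windows). Of the 8, 7 lie in the run on chromosome 9, so they are neighbours and not independent of each other. The TATA box letters were in 10 of the 36, 8 of them in the run, against 9.77% of all genes with a window (8.32% of all windows). Of the 8 members with the AP-1 letters 2 passed over time in PBS, as did 8 of the 36 members with a window and 16.6% of all genes. RefSeq lists another start for Mmp12, whose window held neither motif. A match of letters is a description of the window and not a measured binding site.

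Mmp8, the neutrophil collagenase and also part of that run, varied between arrays. At 3 h Mmp8 stood at 6.47, 5.71 and 4.94 in PBS and 5.58 and 5.44 in imatinib, and at 24 h at 6.16, 6.66 and 7.56 in PBS and 6.50, 6.06 and 6.59 in imatinib. PBS 3 h replicate 1 lay within the range of the 24 h arrays, so the PBS groups overlapped. Over time the log2 difference was 1.09 ± 0.38 in PBS, with a 95% interval of 0.25 to 1.92, and it did not pass (adjusted p = 0.0777, limma). Without PBS 3 h replicate 1 it was 1.47 and passed (adjusted p = 0.02, limma), as it did without PBS 24 h replicate 1 (1.40, adjusted p = 0.0374). In imatinib it was 0.88 ± 0.42 (adjusted p = 0.227, limma).

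The gelatinases Mmp2 and Mmp9, which cut the type IV collagen of basement membranes, did not pass in either treatment. For Mmp9, the PBS arrays gave 5.41, 5.15 and 5.47 at 3 h and 5.73, 5.93 and 6.16 at 24 h, and the imatinib arrays gave 5.46 and 5.28 at 3 h and 5.40, 6.63 and 6.11 at 24 h. The PBS arrays of Mmp9 did not overlap between times, while imatinib 24 h replicate 1 lay within the 3 h values and replicate 2 was the highest. Its log2 difference was 0.60 ± 0.25 in PBS (95% interval 0.06 to 1.14, adjusted p = 0.138, limma) and 0.68 ± 0.28 in imatinib (adjusted p = 0.145). Without imatinib 24 h replicate 1 both passed, at 0.60 in PBS (adjusted p = 0.0301, limma) and 1.0 in imatinib (adjusted p = 0.0106, limma). In a fit of the PBS groups alone the PBS difference of Mmp9 passed as well (0.60, adjusted p = 0.0298, limma). The signals of Mmp2 were 6.23, 5.87 and 6.06 in PBS and 6.08 and 6.19 in imatinib at 3 h, and 6.44, 6.33 and 6.41 in PBS and 6.07, 6.79 and 6.11 in imatinib at 24 h. The difference of Mmp2 in PBS was 0.34 ± 0.17 (95% interval -0.04 to 0.72, adjusted p = 0.239, limma) with no overlap of the PBS groups, and 0.19 ± 0.19 in imatinib (adjusted p = 0.629, limma).

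Of the membrane-bound MMPs, Mmp14 passed. Mmp14, membrane type 1 MMP, cuts fibrillar collagen at the cell surface and activates proMMP2 together with TIMP2. Mmp14 read 7.49, 7.48 and 7.31 on the PBS 3 h arrays, 6.90 and 7.34 on the imatinib 3 h arrays, 8.28, 8.27 and 8.60 on the PBS 24 h arrays and 8.30, 7.77 and 7.93 on the imatinib 24 h arrays. All 24 h arrays exceeded all 3 h arrays. On the log2 scale, 24 h minus 3 h was 0.95 ± 0.16 in PBS, 1.94-fold (adjusted p = 0.00164, limma), and 0.88 ± 0.18 in imatinib, 1.84-fold (adjusted p = 0.00713, limma). The imatinib value was 0.66 and did not pass without imatinib 3 h replicate 1 (adjusted p = 0.0903, limma). For the other membrane types Mmp15, Mmp16, Mmp17, Mmp24 and Mmp25, PBS differences lay between -0.08 and 0.17 and none passed.

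Mmp19, which cuts basement membrane proteins, also rose. At 3 h Mmp19 stood at 6.49, 5.98 and 6.03 in PBS and 5.96 and 6.28 in imatinib, and at 24 h at 7.08, 6.84 and 7.75 in PBS and 6.85, 6.87 and 7.24 in imatinib. The times did not overlap in either treatment. Its log2 difference was 1.06 ± 0.23 in PBS, 2.08-fold (adjusted p = 0.00687, limma). In imatinib it was 0.87 ± 0.25, 1.82-fold (adjusted p = 0.0422, limma), a call that 7 of the 11 single arrays each decided, 5 imatinib arrays and 2 PBS arrays, with values of 0.70 to 1.03 without them.

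Mmp28, epilysin, was the only MMP that fell. For Mmp28, the PBS arrays gave 6.0, 6.19 and 6.43 at 3 h and 5.73, 5.54 and 5.44 at 24 h, and the imatinib arrays gave 6.42 and 6.54 at 3 h and 5.72, 5.86 and 5.94 at 24 h. Every 3 h array lay above every 24 h array. The log2 difference was -0.64 ± 0.13 in PBS (adjusted p = 0.00434, limma) and -0.64 ± 0.14 in imatinib (adjusted p = 0.0109, limma). Without imatinib 3 h replicate 2 the latter was -0.58 and did not pass (adjusted p = 0.0879, limma). The other 7 Mmp genes (Mmp1a, Mmp1b, Mmp7, Mmp20, Mmp21, Mmp23 and Mmp27) had PBS differences between -0.09 and 0.17, and none passed.

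**Figure D2:**
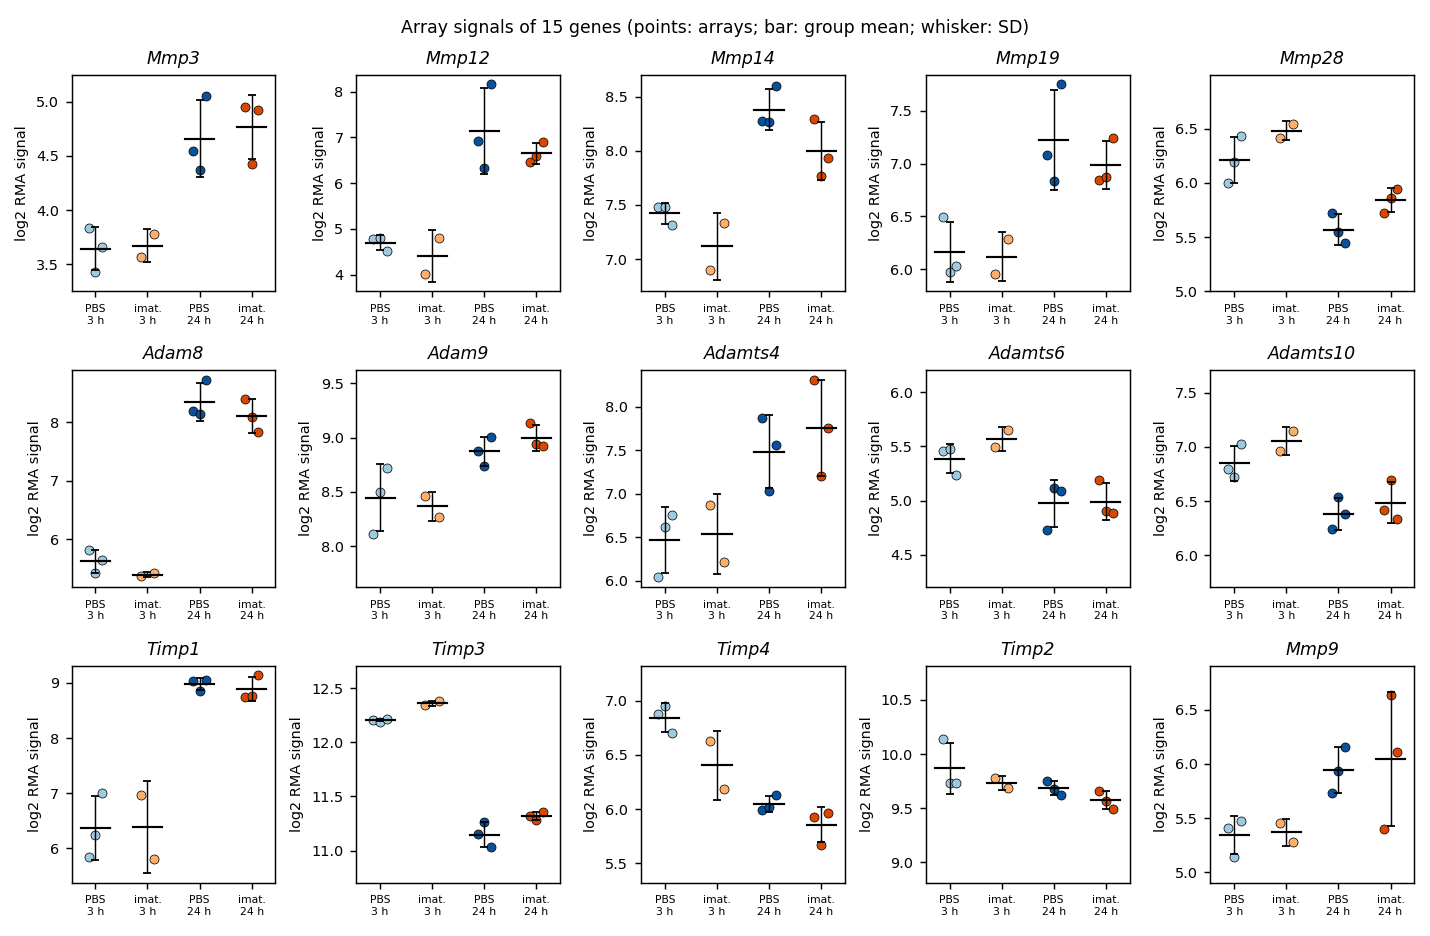
Log2 signal on each array, by group, of the 13 members called over time in either treatment and of Timp2 and Mmp9. Each gene has 1 panel, with a bar at the group mean and whiskers of 1 SD. In the panels of Adam8, Timp1 and Mmp12 the 24 h arrays stand well above the 3 h arrays, and in the Timp3 panel well below.

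Adam8, a leukocyte sheddase, had the largest difference of all 52 members. The signals of Adam8 were 5.81, 5.42 and 5.64 in PBS and 5.37 and 5.43 in imatinib at 3 h, and 8.19, 8.14 and 8.72 in PBS and 8.40, 8.09 and 7.83 in imatinib at 24 h. No 24 h array came near the 3 h arrays. Over time the log2 difference was 2.73 ± 0.18 in PBS, 6.62-fold (adjusted p = 5.1e-06, limma), and 2.71 ± 0.20 in imatinib, 6.55-fold (adjusted p = 2.38e-05, limma). It lay between 2.54 and 2.85 when any 1 array was left out.

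Adam9, a widely expressed membrane ADAM, was called in imatinib. Adam9 read 8.11, 8.50 and 8.72 on the PBS 3 h arrays, 8.46 and 8.27 on the imatinib 3 h arrays, 8.88, 8.74 and 9.0 on the PBS 24 h arrays and 9.13, 8.94 and 8.92 on the imatinib 24 h arrays. Within each treatment the 24 h arrays were above the 3 h arrays. The log2 difference of Adam9 was 0.63 ± 0.17 in imatinib (adjusted p = 0.0268, limma) and 0.43 ± 0.15 in PBS (adjusted p = 0.0741, limma), and the test of the difference between them did not pass (0.20 ± 0.22, adjusted p = 0.957, limma). The call in imatinib was lost without each of the 5 imatinib arrays in turn (0.54 to 0.73), and the PBS difference was 0.57 and passed without PBS 3 h replicate 3 (adjusted p = 0.0235, limma).

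The sheddases Adam10, the main alpha-secretase, and Adam17, which releases TNF, varied little. At 3 h Adam10 stood at 10.13, 10.25 and 10.23 in PBS and 10.19 and 10.22 in imatinib, and at 24 h at 10.20, 10.15 and 10.10 in PBS and 10.40, 10.24 and 10.22 in imatinib. For Adam17, the PBS arrays gave 9.01, 9.23 and 9.09 at 3 h and 9.25, 9.26 and 9.32 at 24 h, and the imatinib arrays gave 9.14 and 9.12 at 3 h and 9.37, 9.24 and 9.19 at 24 h. Their differences in PBS were -0.05 ± 0.09 for Adam10 (95% interval -0.25 to 0.14) and 0.17 ± 0.09 for Adam17 (95% interval -0.04 to 0.37), with adjusted p of 0.778 and 0.287 in limma. The intervals leave out a change of 1.5-fold for both. The 3 h and 24 h arrays of Adam17 did not overlap in either treatment. Adam12, Adam15 and Adam19 had PBS differences of -0.05 ± 0.15, -0.27 ± 0.10 and 0.27 ± 0.18, and did not pass.

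Of the ADAMTS proteases, Adamts4 rose. Adamts4, aggrecanase-1, cuts the proteoglycans aggrecan, versican and brevican. The signals of Adamts4 were 6.04, 6.61 and 6.75 in PBS and 6.87 and 6.21 in imatinib at 3 h, and 7.87, 7.03 and 7.56 in PBS and 8.31, 7.21 and 7.76 in imatinib at 24 h. The times did not overlap, and imatinib 24 h replicate 1 was the highest array. On the log2 scale, 24 h minus 3 h was 1.02 ± 0.30 in PBS, 2.02-fold (adjusted p = 0.0394, limma), and 1.22 ± 0.34 in imatinib, 2.33-fold (adjusted p = 0.0347, limma). Both calls were near the threshold. The PBS call was lost with quantile normalization once more (adjusted p = 0.0541) and with array weights (adjusted p = 0.067), in limma. With quantile normalization once more (adjusted p = 0.0535) and with the imatinib groups alone (adjusted p = 0.0634, limma) so was the imatinib call. In PBS it was lost without PBS 3 h replicate 1 (0.80) or 2 (1.09), PBS 24 h replicate 1 (0.83) or 3 (0.98), or imatinib 24 h replicate 3 (1.02), with adjusted p of 0.0557 to 0.146 in limma. In imatinib it was lost without imatinib 3 h replicate 1 (1.55) or 2 (0.89), or imatinib 24 h replicate 1 (0.94) or 3 (1.22), with adjusted p of 0.0501 to 0.244 in limma.

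Adamts10, whose product binds the fibrillin microfibrils of the vessel wall, fell. Adamts10 read 6.80, 6.72 and 7.03 on the PBS 3 h arrays, 6.97 and 7.14 on the imatinib 3 h arrays, 6.24, 6.53 and 6.38 on the PBS 24 h arrays and 6.42, 6.70 and 6.34 on the imatinib 24 h arrays. All 3 h arrays exceeded all 24 h arrays. The log2 difference was -0.47 ± 0.13 in PBS, 1.38-fold lower (adjusted p = 0.0291, limma), and -0.57 ± 0.14 in imatinib, 1.49-fold lower (adjusted p = 0.023, limma). The PBS call was lost without PBS 3 h replicate 1 (-0.49) or 3 (-0.37), or PBS 24 h replicate 1 (-0.39) or 3 (-0.46), with adjusted p of 0.0515 to 0.112 in limma. The call in imatinib was lost without either imatinib 3 h array (-0.66 and -0.48) or without imatinib 24 h replicate 1 (-0.54) or 3 (-0.50).

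Adamts6, the close relative of Adamts10, passed in imatinib. At 3 h Adamts6 stood at 5.46, 5.47 and 5.23 in PBS and 5.49 and 5.65 in imatinib, and at 24 h at 4.73, 5.11 and 5.09 in PBS and 5.19, 4.91 and 4.88 in imatinib. Each treatment's 3 h arrays lay above its 24 h arrays. Over time the log2 difference was -0.58 ± 0.15 in imatinib (adjusted p = 0.0247, limma) and -0.41 ± 0.13 in PBS (adjusted p = 0.0573, limma), and the difference between them did not pass (-0.17 ± 0.20, adjusted p = 0.959, limma). The imatinib call was lost without either imatinib 3 h array or without imatinib 24 h replicate 2 or 3 (-0.50 to -0.66).

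Adamts1, a versican-cutting protease that restrains vessel growth, stood high on all arrays. For Adamts1, the PBS arrays gave 10.75, 10.52 and 10.87 at 3 h and 11.05, 10.51 and 10.89 at 24 h, and the imatinib arrays gave 10.97 and 10.61 at 3 h and 11.0, 10.64 and 10.84 at 24 h. Its groups overlapped, and the log2 difference was 0.10 ± 0.16 in PBS (95% interval -0.25 to 0.46, adjusted p = 0.76, limma) and 0.03 ± 0.18 in imatinib. Adamts5, the other main aggrecanase, had -0.18 ± 0.26 in PBS, and Adamts9, which also cuts versican, had 0.11 ± 0.18. Adamts13, which cuts von Willebrand factor, had -0.10 ± 0.12, and the procollagen-processing Adamts2, Adamts3 and Adamts14 had -0.13 ± 0.23, 0.20 ± 0.11 and 0.02 ± 0.09. The remaining 9 Adamts genes had PBS differences between -0.20 and 0.17, and of the 19 Adamts genes Adamts16 passed in imatinib without imatinib 3 h replicate 2 (0.86, adjusted p = 0.0105, limma), against 0.45 ± 0.20 on all arrays.

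The 4 inhibitors moved apart. Timp1 rose, Timp3 and Timp4 fell, and Timp2 did not pass. The signals of Timp1 were 5.85, 6.25 and 7.0 in PBS and 6.97 and 5.80 in imatinib at 3 h, and 9.04, 8.86 and 9.06 in PBS and 8.75, 8.77 and 9.13 in imatinib at 24 h. The 24 h arrays of Timp1 lay between 8.75 and 9.13, while the 3 h arrays spread from 5.80 to 7.0, all far below. Its log2 difference was 2.62 ± 0.30 in PBS, 6.13-fold (adjusted p = 0.000168, limma), and 2.50 ± 0.34 in imatinib, 5.64-fold (adjusted p = 0.000709, limma). The value in imatinib was 1.91 without imatinib 3 h replicate 2 and 3.08 without replicate 1, and it passed without each of the 11 arrays.

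Timp3 is held in the matrix and inhibits ADAM17 and aggrecanases as well as MMPs. Timp3 read 12.21, 12.19 and 12.21 on the PBS 3 h arrays, 12.35 and 12.38 on the imatinib 3 h arrays, 11.15, 11.26 and 11.03 on the PBS 24 h arrays and 11.32, 11.28 and 11.36 on the imatinib 24 h arrays. The 3 h arrays of Timp3 were all above the 24 h arrays, with little spread within a group. On the log2 scale, 24 h minus 3 h was -1.05 ± 0.09 in PBS, 2.08-fold lower (adjusted p = 2.01e-05, limma), and -1.04 ± 0.10 in imatinib, 2.06-fold lower (adjusted p = 9.12e-05, limma).

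At 3 h Timp4 stood at 6.88, 6.95 and 6.70 in PBS and 6.63 and 6.18 in imatinib, and at 24 h at 5.99, 6.02 and 6.13 in PBS and 5.93, 5.67 and 5.97 in imatinib. Timp4, an inhibitor known from heart and brain, lay higher on each treatment's 3 h arrays than on its 24 h arrays, and imatinib 24 h replicate 2 was the lowest. The log2 difference was -0.80 ± 0.13 in PBS, 1.74-fold lower (adjusted p = 0.00159, limma), and -0.55 ± 0.15 in imatinib, 1.46-fold lower (adjusted p = 0.0312, limma). The imatinib call was lost without imatinib 3 h replicate 1 (-0.32, adjusted p = 0.292), imatinib 24 h replicate 1 (-0.59, adjusted p = 0.0562) or 2 (-0.46, adjusted p = 0.106) in limma.

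For Timp2, the PBS arrays gave 10.14, 9.73 and 9.73 at 3 h and 9.76, 9.68 and 9.62 at 24 h, and the imatinib arrays gave 9.78 and 9.69 at 3 h and 9.66, 9.57 and 9.49 at 24 h. Timp2, which blocks MMP2 and also helps MMP14 activate its proenzyme, overlapped between the PBS times. Its log2 difference was -0.18 ± 0.12 in PBS (95% interval -0.44 to 0.08, adjusted p = 0.381, limma) and -0.16 ± 0.13 in imatinib (adjusted p = 0.522, limma).

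The promoters of the 2 inhibitors with the largest rise and fall, Timp1 and Timp3, are shown because they moved in opposite directions. Neither window holds the exact AP-1 or TATA letters searched, and so neither holds capitals. Variants of these motifs were not searched. Both are from RefSeq, GRCm38.p6, plus strand, at chrX:20869916-20870215 for Timp1 and chr10:86300162-86300461 for Timp3.
Timp1: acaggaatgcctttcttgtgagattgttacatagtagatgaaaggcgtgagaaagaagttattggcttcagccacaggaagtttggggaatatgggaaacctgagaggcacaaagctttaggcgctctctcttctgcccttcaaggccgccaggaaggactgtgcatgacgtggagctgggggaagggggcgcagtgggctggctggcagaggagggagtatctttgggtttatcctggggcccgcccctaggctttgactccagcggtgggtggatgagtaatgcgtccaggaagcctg
Timp3: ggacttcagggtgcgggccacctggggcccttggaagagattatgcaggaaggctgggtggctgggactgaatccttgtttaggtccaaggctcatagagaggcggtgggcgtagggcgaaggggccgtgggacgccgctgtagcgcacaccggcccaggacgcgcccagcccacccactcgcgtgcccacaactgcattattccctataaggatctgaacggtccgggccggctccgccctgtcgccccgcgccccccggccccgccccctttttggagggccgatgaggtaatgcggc

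Markers of other cells differed between the same groups, where 9.34% of all genes were higher and 7.28% lower at 24 h in PBS. In PBS, 10 of 12 monocyte and macrophage markers were higher at 24 h in limma and none lower, with a median log2 difference of 2.02. The mean of that list ranged from 7.02 to 7.31 on the PBS 3 h arrays, 7.03 to 7.09 in imatinib at 3 h, 9.16 to 9.75 in PBS at 24 h and 8.89 to 9.15 in imatinib at 24 h, and no marker lay below the 25th percentile on all arrays of a group. Of 12 neutrophil markers, 4 were higher at 24 h in PBS in limma and none lower. The median log2 difference of that list was only 0.02 in PBS and -0.02 in imatinib, so the list as a whole did not rise. Its list means, which a few genes can move, were 6.04 to 6.63 at 3 h and 6.68 to 7.10 at 24 h in PBS. In imatinib they were 5.93 to 6.30 and 6.53 to 6.73. Ly6g was below the 25th percentile on all 3 h arrays and Camp on all 24 h arrays. Border macrophage markers were higher in 4 of 8. Of the other lists in PBS, 1 of 8 astrocyte markers rose and 4 fell, 1 of 8 microglia markers rose and 3 fell, 1 of 8 perivascular fibroblast markers rose, 1 of 8 neuron and 2 of 8 oligodendrocyte markers fell, 1 of 6 oligodendrocyte precursor markers rose and 1 fell, and none of 8 choroid plexus markers passed in limma.

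Markers of the vessel wall were lower at 24 h, as were those of some other cells. The PBS median was -0.75 for choroid plexus (none passed), -0.43 for astrocyte and -0.43 for microglia markers. It was -0.21 for oligodendrocyte and -0.11 for neuron markers, but 0.03 for perivascular fibroblast and 0.01 for oligodendrocyte precursor markers. In PBS, 7 of 12 endothelial, 8 of 10 pericyte and 3 of 8 smooth muscle markers fell in limma and none rose, with medians of -0.46, -0.68 and -0.65. In imatinib, where 5.32% of all genes were lower, 5, 0 and 1 of them fell, with medians of -0.30, -0.13 and -0.44. The imatinib group at 3 h held only 2 arrays. No endothelial, pericyte or smooth muscle marker passed in the interaction, or between imatinib and PBS at either time, in limma. The unlike counts are therefore not evidence of a difference between the treatments. The endothelial list mean ranged from 10.83 to 11.0 in PBS at 3 h, 11.01 to 11.02 in imatinib at 3 h, 10.27 to 10.49 in PBS at 24 h and 10.59 to 10.70 in imatinib at 24 h. The pericyte list mean ranged from 9.19 to 9.72, 9.03 to 9.09, 8.58 to 8.80 and 8.88 to 9.05 in the same order. In such bulk samples fewer cells of a type and less RNA per cell cannot be told apart, and the part of these markers in the members' differences was not tested.

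**Figure D3:**
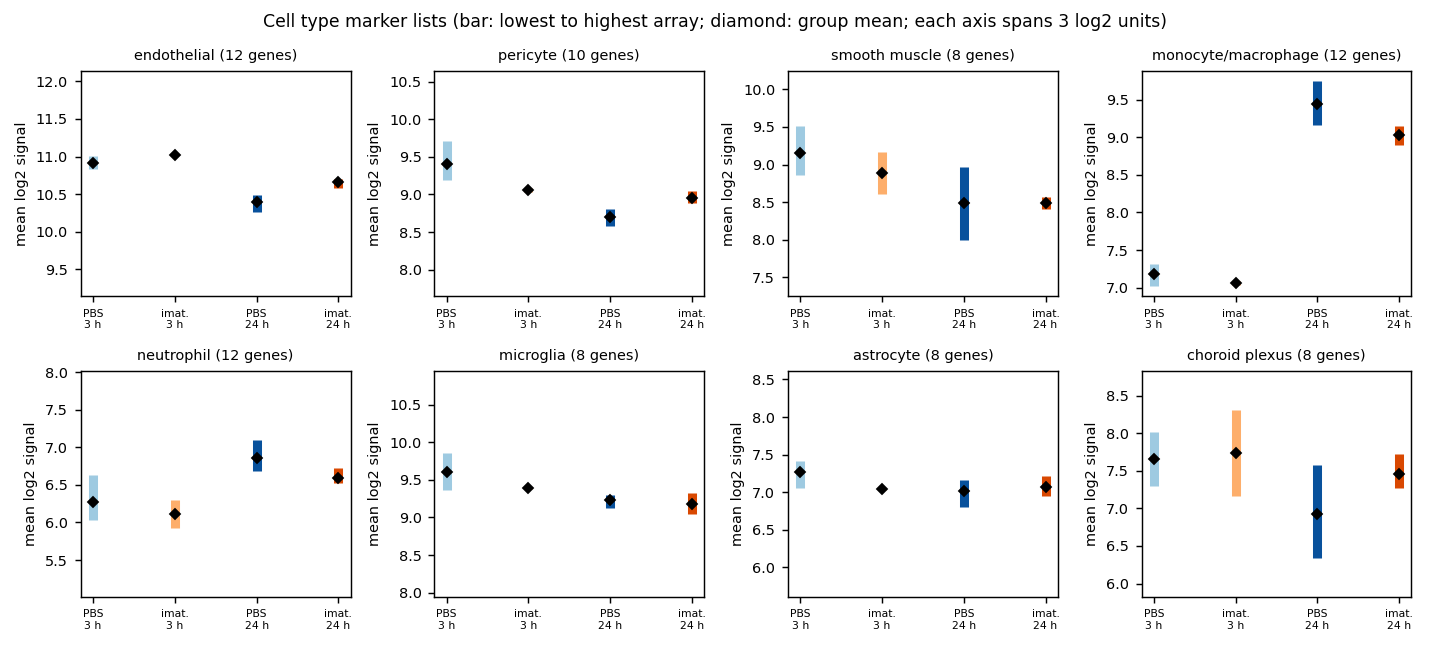
Mean log2 signal of 8 cell type marker lists by group (imat., imatinib), with a coloured bar from the lowest to the highest array and a diamond at the group mean. The monocyte and macrophage list lies between 7.02 and 7.31 at 3 h and between 8.89 and 9.75 at 24 h, while the endothelial list lies lower at 24 h.

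The genes around these proteases changed in part. The lists are small, and their counts stand beside 9.34% of all genes higher and 7.28% lower in PBS and 7.76% and 5.32% in imatinib. Some of their genes also sit in the marker lists above, so they are not separate observations. These are Vcan (oligodendrocyte precursor, the marker that rose there in PBS), Col1a1, Col1a2 and Col3a1 (perivascular fibroblast), Lcn2 (neutrophil) and Cdh5 (endothelial). Of 23 activators, other inhibitors and clearance receptors, 2 rose and 5 fell in PBS in limma, with a median difference of -0.09, and 1 rose and 3 fell in imatinib. Plat, the tissue plasminogen activator, whose product plasmin activates several MMPs, went from 11.27 at 3 h to 9.47 at 24 h in PBS (-1.80 ± 0.24, adjusted p = 0.000435, limma), and its difference in imatinib was -1.72 ± 0.27 (adjusted p = 0.00172). Spock2, testican-2, a matrix proteoglycan, fell by 1.27 ± 0.19 in PBS (adjusted p = 0.000691, limma) and by 1.08 ± 0.21 in imatinib (adjusted p = 0.00513, limma). Serpinb2, an inhibitor of plasminogen activators, was dim at 3 h and rose by 1.01 ± 0.28 in PBS (adjusted p = 0.0312, limma), while its difference in imatinib was 0.27 ± 0.32 (adjusted p = 0.677). Tfpi2, a serine protease inhibitor of the matrix, rose by 0.78 ± 0.23 in PBS (adjusted p = 0.0358) and by 1.28 ± 0.26 in imatinib (adjusted p = 0.00651), in limma. The PBS calls of Serpinb2 and Tfpi2 and the imatinib call of Tfpi2 were lost without single arrays of those groups, with values of 0.60 to 1.07, 0.57 to 0.84 and 1.14.

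Of 17 ADAM partners and other ADAMs, 4 fell and none rose in PBS in limma, with a median of -0.10, and 1 fell in imatinib. The one called lower in both was Rhbdf2, iRhom2, which carries ADAM17 to the cell surface (-0.61 ± 0.12 in PBS, adjusted p = 0.00488, and -0.66 ± 0.14 in imatinib, adjusted p = 0.00791, limma). Its imatinib call was lost without imatinib 3 h replicate 1 (-0.55, adjusted p = 0.0874, limma). Sh3pxd2a, TKS5, a scaffold protein of invadopodia, fell by 0.58 ± 0.14 in PBS (adjusted p = 0.0141, limma), and did not pass without PBS 24 h replicate 2 (-0.51) or 3 (-0.55). In imatinib Sh3pxd2a had -0.50 ± 0.16 (adjusted p = 0.0573, limma). There it passed under several alternatives, among them array weights (-0.51, adjusted p = 0.0358) and the imatinib groups alone (-0.50, adjusted p = 0.0305), in limma.

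Of 20 ADAMTS relatives and substrates, 3 rose and 2 fell in PBS in limma (median -0.03), and 2 rose and 1 fell in imatinib (median 0.01). Vcan, versican, which Adamts1, Adamts4 and Adamts9 cut, rose by 1.95 ± 0.37 in PBS (adjusted p = 0.00358, limma) and by 1.38 ± 0.42 in imatinib (adjusted p = 0.0495, limma), a call that 8 of the 11 single arrays each decided. Thbs1, thrombospondin-1, rose by 2.01 ± 0.26 in PBS (adjusted p = 0.000332, limma) and by 1.53 ± 0.29 in imatinib (adjusted p = 0.00504, limma), where the call was lost without imatinib 3 h replicate 1 (1.35). The brain proteoglycans Bcan and Ncan fell by 0.54 ± 0.16 and 0.41 ± 0.12 in PBS (adjusted p = 0.0364 and 0.0338, limma), and lost the call without 6 and 5 of the 11 arrays, respectively (-0.43 to -0.60 and -0.30 to -0.44). In imatinib neither passed, with -0.43 ± 0.18 for Bcan (adjusted p = 0.146, limma) and -0.11 ± 0.13 for Ncan (adjusted p = 0.674, limma), although Bcan passed without imatinib 24 h replicate 1 (-0.59, adjusted p = 0.0497). Adamtsl4, an ADAMTS-like protein with no protease domain, fell by 0.60 ± 0.12 in imatinib (adjusted p = 0.00636, limma), a call lost without imatinib 3 h replicate 2 (-0.53), and had -0.32 ± 0.11 in PBS.

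Of 19 surface proteins and ligands that ADAMs release, 3 rose and 3 fell in PBS in limma (median -0.17), and 3 rose and 1 fell in imatinib (median 0.02). Tnf, the cytokine that ADAM17 releases from the cell surface, rose by 1.83 ± 0.21 in PBS (adjusted p = 0.000169, limma) and by 1.19 ± 0.24 in imatinib (adjusted p = 0.00667, limma), where the call was lost without imatinib 3 h replicate 1 (1.04). Cx3cl1, fractalkine, released by ADAM10 and ADAM17, fell by 1.61 ± 0.14 in PBS (adjusted p = 2.2e-05, limma) with a difference of -1.41 ± 0.15 in imatinib (adjusted p = 0.000183). Il6ra, the interleukin 6 receptor, fell by 0.59 ± 0.11 in PBS (adjusted p = 0.00356, limma) and had -0.37 ± 0.13 in imatinib (adjusted p = 0.083, limma). No gene of the 4 lists passed between imatinib and PBS at either time.

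**Figure D4:**
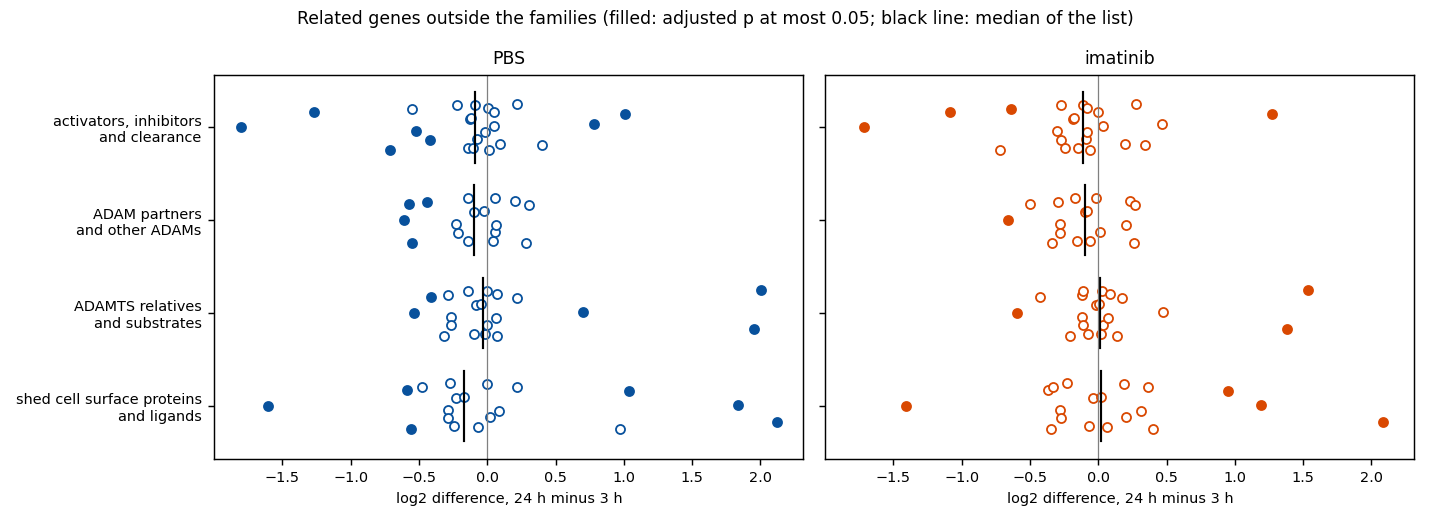
Log2 difference between 24 h and 3 h for genes of the 4 related lists, 1 point per gene, in PBS (left) and in imatinib (right), with filled points for adjusted p of 0.05 or less in limma and a black line at each list's median. Plat, Cx3cl1 and Spock2 lie toward the low end and Thbs1, Vcan and Tnf toward the high end.

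Imatinib against PBS gave no call in the family. At 3 h 0 of 52 members passed in limma, as did 0% of all genes. The smallest adjusted p of a member was 0.711, differences ran from -0.44 to 0.29, and 3 members had an unadjusted p under 0.05 against 6.4% of all genes. Those 3 were Timp4 (-0.44 ± 0.15, 95% interval -0.77 to -0.11), Adamts12 (-0.41 ± 0.14) and Mmp25 (0.29 ± 0.13), each with adjusted p of 0.711 or 0.772. In 7 members the 2 imatinib arrays did not overlap the 3 PBS arrays (5 higher and 2 lower), against 18.7% of all genes (9.59% and 9.14%).

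At 24 h 0 of 52 members passed in limma, again with 0% of all genes, and the smallest adjusted p was 0.815. The range was -0.49 to 0.27, and Mmp14 (-0.38 ± 0.16, 95% interval -0.73 to -0.03) and Adamts14 (-0.21 ± 0.09) had an unadjusted p under 0.05, 2 members against 6.1% of all genes. The groups did not overlap in 4 members, Adam10 and Timp3 higher and Adamts14 and Timp4 lower in imatinib, against 13% of all genes (6.33% and 6.67%). Timp3 was higher in imatinib by 0.16 ± 0.10 at 3 h and 0.17 ± 0.09 at 24 h and Timp4 lower by 0.44 at 3 h and 0.19 at 24 h, with no overlap at either time and no adjusted p below 0.711.

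Intervals were wide for some of the members with the largest changes over time. For Mmp12 the difference between imatinib and PBS at 24 h was -0.49 ± 0.37, with a 95% interval of -1.30 to 0.32, and for Timp1 it was -0.10 ± 0.30, with an interval of -0.77 to 0.57. Mmp9 had 0.11 ± 0.25, with an interval of -0.43 to 0.65. These intervals do not show that the treatments were alike. The interaction, by which the effect of imatinib would differ between the times, ran from -0.30 to 0.44 over the members and passed for none in limma, where 0 of 52 had an unadjusted p under 0.05 against 5.49% of all genes.

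**Figure D5:**
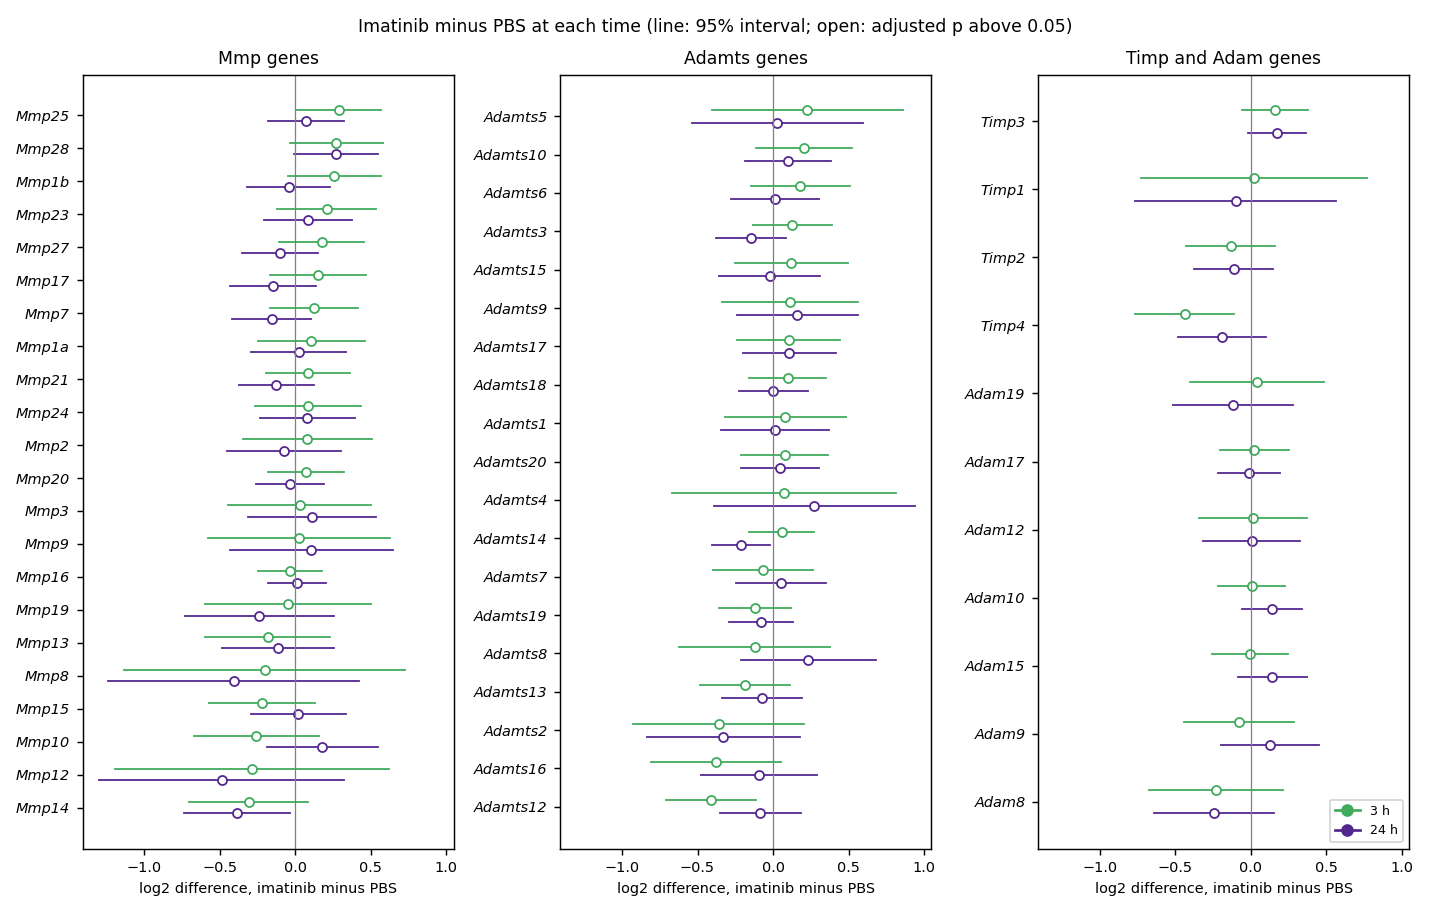
Log2 difference between imatinib and PBS for each member at 3 h (n = 2 and 3 arrays) and at 24 h (n = 3 and 3), with lines for 95% intervals. All points are open, since none of the 52 passed an adjusted p of 0.05 in limma, and they lie between -0.49 and 0.29.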

How the data were processed

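The 11 Affymetrix arrays of vascular fragments were put in groups by their labelled treatment and time. Signals were deposited on the log2 scale, 1 per probe set, and the authors used Affymetrix Expression Console, RMA and limma, per the submitters' processing notes. Array type, genome build and tool versions: not given in the sources used here. RMA normalizes arrays to a common distribution, so all differences are relative to the other genes. No slide or scan information was found in the files, so no batch was tested.

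The table held 33793 probe sets. Those with no symbol (1591), with more than 1 (128) or with a date in its place (14) were not used. For 730 genes with several probe sets the one with the highest mean was kept, leaving 30790 genes. The deposited values were not normalized again.

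limma 3.58.1 (R 4.3.3) fitted 1 mean for each of the 4 groups on all 11 arrays, with empirical Bayes moderation (7 residual and 4.37 prior degrees of freedom) and Benjamini-Hochberg adjustment over all genes, threshold 0.05. The fit was tested on simulated data. Where a group is left with 1 array, that array is assumed to vary like the other groups.

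The members and the gene lists were chosen with earlier results of these data known. Members that passed in any comparison are given with every array, as are Mmp2, Mmp3, Mmp9, Mmp14, Adam10, Adam17, Adamts1, Adamts4 and the Timp genes. Members gaining a call without 1 array (Mmp8, Mmp13, Adamts16) were named after their values were seen. Related genes are named as the 2 largest past the threshold in each direction of each list. Marker lists of 13 cell types were counted in the same fit. Alternatives were array centring, quantile normalization, a filter on dim genes, the mean of probe sets, trend and robust moderation, array weights, the replicate number as a block, the compared groups alone, and leaving out each array. Promoter windows came from RefSeq, GRCm38.p6, by symbol, for 36 of 52 members. Figures used matplotlib 3.10.9.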

Additional observations from a re-analysis of the deposited data

How the results depend on the processing

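The count of members called over time in PBS was 11 of 52, where 16.6% of all genes passed. It lay between 9 (with 12.6% of all genes) and 12 (14.5% or 15.7%) when each array was left out in turn. Under the other alternatives it lay between 10 (15.4% or 16.6%) and 13. The latter was 13 of 52 with trend and robust moderation (18.2% of all genes) and 13 of 35 with the filter on dim genes (34.6%). The count in imatinib was 13 and lay between 4 and 13 with each array left out, with 3 such fits moving it by more than 1.5 times (4 without imatinib 3 h replicate 1, and 8 without imatinib 3 h replicate 2 or imatinib 24 h replicate 3). The share of all genes called moved in the same fits, from 13.1% to 7.39%, 7.39% and 9.22%. Fewer arrays in that group widen the errors. No member passed between imatinib and PBS, or in the interaction, under any alternative run, and no result changed its direction past the threshold. Over 81 values of single genes and the alternatives, 1532 comparisons were made, of which 94 lost a call and 26 gained one, and 1412 kept their side of the threshold.

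The titles number the replicates, and the labels do not say that a number marks a shared animal or day. Deviations of same-numbered arrays from their group means had correlations of -0.037 to 0.058 over all genes. With 2 or 3 arrays in a group, such correlations cannot show whether the samples were paired. With the replicate number as a block, 11 members were called in PBS and 9 in imatinib, where Adam9, Adamts6, Mmp19 and Timp4 were lost, as was the PBS call of Ncan (-0.41, adjusted p = 0.0598, limma). All genes called with the block were 15.7% in PBS and 11.0% in imatinib. No member was called in the other comparisons with the block. The filter on dim genes tested 16742 genes and 35 members and left out Mmp3. Leaving out an imatinib 3 h array leaves that group with 1 array.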
